A study of Camellia sinensis with 15 samples.

Results

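Roots of tea seedlings (*Camellia sinensis* 'Fuding Dabaicha') were compared after 15 d (As2) and after 10 d (As1) of arsenic treatment. The members are the 6 arsenic libraries, 3 of As1 and 3 of As2, of the 15 libraries of the series, and the genes tested are the 28789 of 59128 with an FPKM of at least 1 in 3 or more of these 6 libraries. FPKM is the fragment count of a gene, scaled to its transcript length and to a factor of the library. The study's text names the DESeq2 package for this step, and the factors of the deposited values do not follow the fragment totals. Both groups were wild-type, 2-year-old plants that had received 400 mL of an As(V) solution of 120 mg/kg in their pots, and the untreated control roots (CK) came from plants of the same age and cultivar. The harvest times are those of the study's methods, whereas the titles of all samples name day 15. The 3 CK libraries analysed here form 1 group, with no control of its own for each harvest, so a longer exposure and a later harvest cannot be told apart. The other libraries come from roots treated with cadmium for 10 d (Cd1) and 15 d (Cd2).

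Plant roots take up arsenate through phosphate transporters and reduce it to arsenite, which binds to thiols and is moved into the vacuole with phytochelatins. The stress often coincides with oxidative damage, abscisic acid signals and the formation of protective sugars such as raffinose. The study's text names 22 tea genes with their families, and these form the list described here. They are 4 genes of galactinol and raffinose synthesis, 1 NCED, 1 HIPP, 1 CBL, 6 AP2/ERF, 8 MYB and 1 bHLH gene. The study chose most of them on these same libraries, so they are not independent evidence of a direction. The identifiers of other genes are not paired with names, and the root label was not checked against markers of root cells for the same reason.

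The arsenic libraries held between 10483112 and 13367944 fragments, recovered as whole numbers from the FPKM values. One cadmium library was deposited under 2 labels, Cd1 replicate 3 and Cd2 replicate 1, with the same values in both, and it was used once under the latter. Across genes, Pearson's r on log2(FPKM + 1) lay between 0.952 and 0.962 within As1, between 0.946 and 0.954 within As2 and between 0.921 and 0.949 across both groups. Among the arsenic and CK libraries, As2 replicates 2 and 3 had their highest r with a CK library. For replicate 2 it was 0.960 with CK replicate 3, against 0.947 and 0.946 with the other As2 libraries, and for replicate 3 it was 0.956 with CK replicate 1, against 0.954 and 0.946.

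In As2 vs. As1, 754 DEGs were detected among the 28789 genes (2.62% called). Of these, 553 genes (1.92% of those tested) were higher and 201 genes (0.698%) lower at 15 d than at 10 d. A gene counted as a DEG when limma-trend on log2(FPKM + 1), fitted over all 5 groups, gave it an FDR (Benjamini-Hochberg) below 0.05 and a change beyond 1 in either direction on the log2 scale. An unadjusted p under 0.05 was reached by 5612 genes (19.5%). On this scale the change of genes with low FPKM is understated. No source says whether the replicates came from separate plants, so the p-values measure the spread between these libraries. In whole roots, fewer cells of a type and less RNA per cell cannot be told apart. The spread was alike in both groups, with a median SD per gene of 0.315 in As1 and in As2 on the log2 scale.

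The median log2 fold change was 1.65 for the higher genes, with 179 genes over 2 and 18 over 4. For the lower genes it was -1.50, with 56 genes below -2 and 6 below -4. The median over all genes tested was 0.02. Every one of the 553 higher DEGs had its 3 As2 libraries above its 3 As1 libraries, and the 201 lower DEGs showed the reverse. Over all genes tested, 11.4% were separated upward and 11.2% downward, and the DEGs were chosen on the same values. The share of higher DEGs ran from 1.53% in the lowest of 4 level classes of equal size to 2.10% in the highest. The share of lower DEGs ran from 0.29% to 1.26% over the same classes. Genes outside the reference annotation made up 10.1% of the higher and 12.4% of the lower DEGs, against 13.2% of all genes tested.

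**Figure D1:**
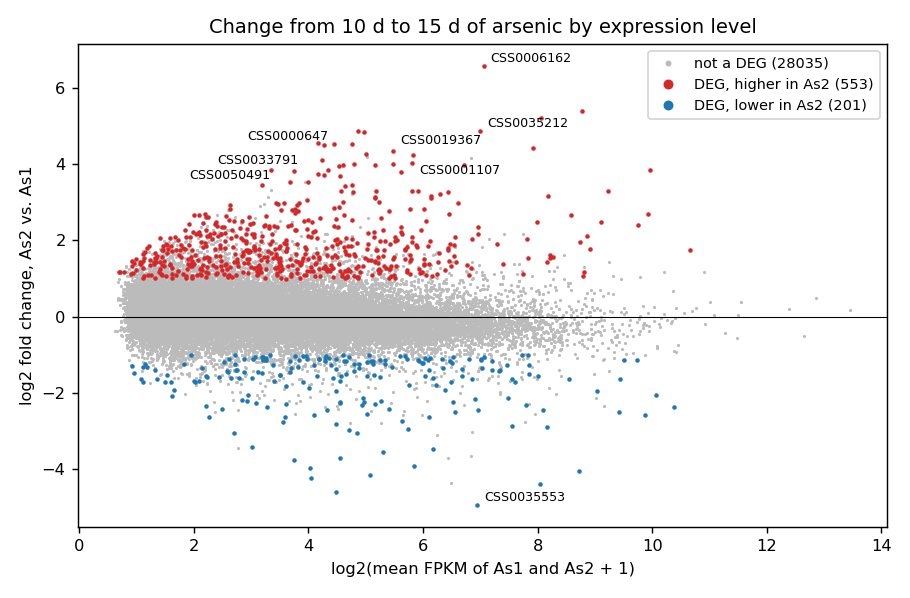
Each point is 1 of the 28789 genes tested, with its mean FPKM in As1 and As2 on a log2 axis and its log2 fold change in As2 vs. As1. The 553 higher DEGs are red and the 201 lower DEGs blue, and CSS0006162 lies at the top with a log2 fold change of 6.59.

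The number of calls depended strongly on which library was left out. As2 replicate 1 had the highest value of its group in 65.5% of the higher DEGs and the lowest in 62.7% of the lower DEGs. These shares were not computed over all genes tested. Without As2 replicate 1, 193 DEGs were called, with 136 higher and 57 lower. There were 312 DEGs without As1 replicate 3, with 226 higher and 86 lower, and 456 without As1 replicate 2, with 344 higher and 112 lower. Without As1 replicate 1 the lower DEGs numbered 129. Without As2 replicate 2, there were 413 higher and 286 lower DEGs. In all, 130 of the higher and 37 of the lower DEGs were called in each of the 6 fits that left out 1 arsenic library. With only the 6 arsenic libraries in the fit, 336 DEGs were detected, 308 of them among the 754.

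The level in CK lay between the levels in As1 and As2 for 483 of the 553 higher and 169 of the 201 lower DEGs, and for 38.7% of all genes tested. The median log2(FPKM + 1) of the higher DEGs was 2.43, 2.29 and 2.10 in the As1 libraries, 4.58, 4.05 and 3.92 in the As2 libraries and 3.74, 3.53 and 3.85 in the CK libraries. The medians of all CK libraries thus lay above those of As1 and below those of As2. For the lower DEGs the medians were 5.19, 5.15 and 5.18 in As1, 3.10, 3.80 and 3.37 in As2 and 3.77, 4.17 and 3.95 in CK. Here As2 replicate 2 lay above CK replicate 1, and As1 above all others. The DEGs were chosen on the As1 and As2 values, for a wide gap between them. A CK level falls inside such a gap more easily than inside the gaps of all genes. The counts beside 38.7% and these medians thus describe the groups without a test.

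The largest change of all genes tested was that of CSS0006162, a HIPP gene. HIPPs are metal-binding proteins with a heavy-metal-associated domain and a lipid anchor, and members of the family bind cadmium or other metals in *Arabidopsis*. Its FPKM was 2.60, 2.66 and 0.370 in the As1 libraries and 366, 236 and 185 in the As2 libraries, beside 106, 62.8 and 75.8 in CK. All As1 libraries lay below CK and all As2 libraries above it. The As1 values rest on 26, 26 and 4 fragments, and the As2 values on 3431, 2240 and 1686. The mean was 139.6 times as high in As2 as in As1, with a log2 fold change of 6.59 ± 0.35 (SE, n = 3) and an adjusted p of 1.92e-06 from limma-trend.

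All 4 genes of galactinol and raffinose synthesis rose from As1 to As2 (1.92% of all genes tested), with a median log2 fold change of 4.19, against 0.02 over all genes. Galactinol synthases (GolS) make galactinol, the galactose donor of this pathway, and raffinose synthase (RFS) moves the galactose to sucrose. The FPKM of the GolS gene CSS0035212 was 9.96, 6.15 and 4.87 in As1, 392, 197 and 154 in As2 and 72.6, 65.3 and 109.6 in CK. That of the GolS gene CSS0001107 was 6.48, 5.62 and 3.81 in As1, 149, 81.2 and 84.5 in As2 and 39.4, 30.2 and 49.5 in CK. In both genes no library of one arsenic group reached the range of the other, and As2 replicate 1 was the highest. The GolS gene CSS0019367 had an FPKM of 3.34, 4.28 and 1.77 in As1, 124, 62.6 and 65.8 in As2 and 23.3, 25.6 and 44.8 in CK. The RFS gene CSS0050491, placed by the study beside *AtRFS5*, had an FPKM of 1.04, 0.959 and 0.186 in As1, 37.3, 15.4 and 20.0 in As2 and 8.26, 4.30 and 8.73 in CK. Its As1 libraries held 31, 28 and 6 fragments, so that its level at 10 d is the least precise of the 4. The log2 fold changes were 4.89 ± 0.33 for CSS0035212, 4.04 ± 0.25 for CSS0001107, 4.34 ± 0.31 for CSS0019367 and 3.82 ± 0.38 for CSS0050491 (SE, n = 3). Their adjusted p-values from limma-trend lay between 7.13e-06 (CSS0001107) and 0.000291 (CSS0050491).

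CSS0033791 encodes a 9-cis-epoxycarotenoid dioxygenase (NCED), the enzyme that limits the synthesis of abscisic acid. Its FPKM was 1.84, 0.310 and 1.02 in As1, 52.0, 26.6 and 25.7 in As2 and 14.4, 5.05 and 10.6 in CK. The As1 libraries differed among themselves, with 85, 14 and 51 fragments, yet all lay below every CK and As2 library. The log2 fold change was 4.11 ± 0.38 (SE, n = 3), with an adjusted p of 0.000245 from limma-trend.

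CSS0000647 was the only tested gene of the AP2/ERF list that rose, 1 of 5 tested, whereas 0 of 5 fell, against 1.92% higher and 0.698% lower among all genes. The counts were also 1 and 0 with limma-voom on recovered fragments (1.32% higher and 0.469% lower among all genes) and at an unadjusted p under 0.05 (10.2% and 9.29%). With 5 genes, 0 lower is near these shares. It is the gene the study places beside *AtERF53*, which in *Arabidopsis* encodes a transcription factor that responds to drought. Its FPKM was 1.25, 0.70 and 1.16 in As1, 84.0, 34.0 and 34.6 in As2 and 14.1, 8.96 and 15.997 in CK. The As1 libraries lay close together, and As2 replicate 1 was over the other As2 libraries. The log2 fold change was 4.55 ± 0.32 (SE, n = 3), with an adjusted p of 1.82e-05 from limma-trend.

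Of the 22 listed genes, 20 were tested, 7 rose and 0 fell in limma-trend, against 1.92% higher and 0.698% lower among all genes. At an unadjusted p under 0.05, 8 were higher and 1 was lower (10.2% and 9.29% of all genes), and limma-voom called 7 and 0 (1.32% and 0.469%). The study picked the 7 for this pattern on these libraries. As2 replicate 1 had the highest As2 value for each of the 7. All 7 remained DEGs under each of the 24 alternative settings and choices of libraries. The smallest log2 fold change was 3.47 (CSS0050491) and the highest adjusted p 0.0397 from limma. These settings use the libraries on which the 7 were picked, so they are no independent support. CSS0006162, CSS0050491, CSS0033791 and CSS0000647 did not reach an FPKM of 1 in all As1 libraries and passed the filter only with their As2 values. In As1 vs. CK, 7 of 7 were called lower (1.22% of all genes tested, with 1.61% called in either direction), with log2 fold changes from -4.94 (CSS0006162) to -2.22 (CSS0050491). In As2 vs. CK, 0 of 7 were called (0.00695% of all genes tested), with log2 fold changes from 1.35 (CSS0001107) to 1.79 (CSS0000647), and 7 of 7 were higher at an unadjusted p under 0.05 in limma-trend (4.51% of all genes tested). These comparisons share the As1 or As2 libraries with As2 vs. As1.

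**Figure D2:**
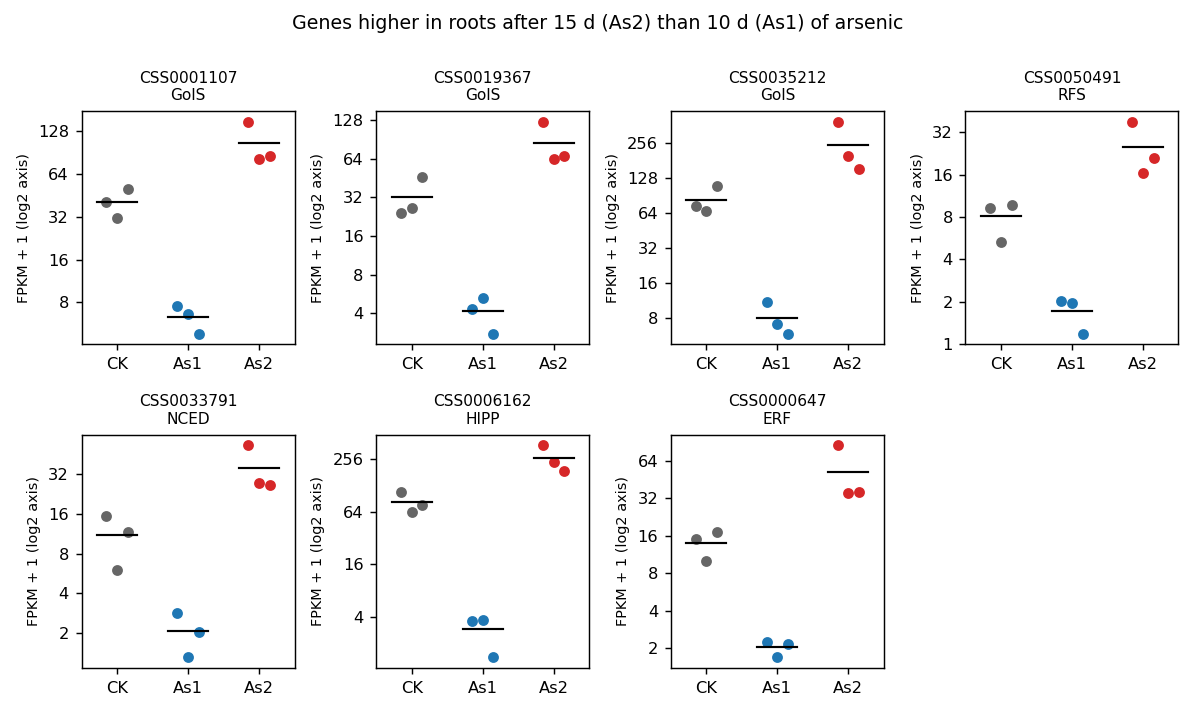
FPKM + 1 of the 7 listed genes that rose, on log2 axes that differ between panels, with 1 point per library (replicates 1 to 3 from left to right) and a line at the mean of FPKM + 1 in CK, As1 and As2. In each panel all As1 libraries lie below CK and all As2 libraries above it, and As2 replicate 1 is the highest. The study picked these genes on these libraries for a fall and a later rise, so the panels do not test this pattern.

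The other AP2/ERF genes were not DEGs. CSS0018401 had an FPKM of 212, 297 and 278 in As1, 182, 213 and 250.3 in As2 and 118, 137 and 118 in CK. All 6 arsenic libraries were above CK, and the 2 arsenic groups overlapped. In As1 vs. CK it was called higher (0.389% of all genes tested), with a log2 fold change of 1.06. Its log2 fold change in As2 vs. As1 was -0.28, with a 95% interval from -0.70 to 0.13 (adjusted p = 0.453 from limma-trend). CSS0049619 had an FPKM of 108, 39.6 and 93.3 in As1, 84.1, 195 and 76.5 in As2 and 70.7, 118 and 177 in CK, so that the spread within groups covered the difference between them.

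CSS0034513 and CSS0009309 were low at both times. The FPKM of CSS0034513 was 8.10, 1.49 and 6.35 in As1, 4.66, 10.4 and 1.37 in As2 and 79.0, 42.9 and 78.6 in CK. That of CSS0009309 was 18.8, 5.21 and 4.19 in As1, 3.95, 23.3 and 3.95 in As2 and 99.3, 40.3 and 83.5 in CK. Every arsenic library was below every CK library in both genes. Both were called lower in As1 vs. CK (1.22% of all genes tested), with log2 fold changes of -3.57 and -3.03. In As2 vs. CK neither was called (0.00695% of all genes tested were). The log2 fold changes there were -3.61 and -3.07 (adjusted p = 0.0923 and 0.136 from limma-trend). The study named both genes for lower values under arsenic on these libraries. The log2 fold changes of As2 vs. As1 were -0.04 (95% interval -1.26 to 1.18, adjusted p = 0.978 from limma-trend) and -0.03 (-1.36 to 1.29, adjusted p = 0.984), and leaving out some single libraries turned their sign. CSS0043971 did not pass the filter, with an FPKM of 0.280, 0 and 0.907 in As1, 0.299, 3.83 and 0.767 in As2 and 9.73 to 17.0 in CK. Only As2 replicate 2 exceeded 1 among its arsenic libraries.

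Of the 7 MYB genes tested, 0 were DEGs in limma-trend (2.62% of all genes) and 0 in limma-voom (1.32% higher and 0.469% lower), and their median log2 fold change was 0.33. At an unadjusted p under 0.05, 1 was higher and 1 lower, with 19.5% of all genes past it. For 7 genes these counts are near the shares over all genes. MYBs are a large family of plant transcription factors, with roles from secondary metabolism to stress responses. CSS0030465 had the lowest log2 fold change of the list, with an FPKM of 13.9, 17.3 and 13.99 in As1, 5.69, 12.3 and 8.32 in As2 and 37.1, 32.1 and 48.6 in CK. Its As2 libraries were all below its As1 libraries, and both below CK. The log2 fold change was -0.77 (95% interval -1.39 to -0.14, adjusted p = 0.164 from limma-trend).

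In 2 other MYB genes As2 replicate 2 stood out. CSS0000442 had an FPKM of 2.36, 0.604 and 3.93 in As1, 3.14, 40.3 and 3.49 in As2 and 14.5, 13.0 and 18.2 in CK. CSS0002706 had an FPKM of 7.93, 6.05 and 5.28 in As1, 4.96, 29.4 and 3.08 in As2 and 11.4, 16.5 and 29.2 in CK. In both genes As2 replicate 2 was at or above the highest CK library, while the other As2 libraries lay in or below the range of As1. Their log2 fold changes were 1.62 (95% interval 0.03 to 3.21, adjusted p = 0.246 from limma-trend) and 0.30 (-1.07 to 1.67, adjusted p = 0.844). Without As2 replicate 2 they were 0.532 and -0.575. CSS0015964 did not pass the filter, with an FPKM of 3.45 in As2 replicate 2, from 38 fragments, and of 0 in the other As2 libraries. A value of 0 allows up to 3 fragments, by counting error only.

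CSS0031744 had an FPKM of 2.59, 1.70 and 2.21 in As1 and 2.69, 4.54 and 2.04 in As2, and CSS0006502 of 5.11, 2.35 and 1.81 in As1 and 4.45, 9.67 and 1.87 in As2. CSS0043569 had an FPKM of 14.2, 11.5 and 15.6 in As1 and 5.18, 12.9 and 12.5 in As2. In these genes too As2 replicate 2 was the highest of its group. CSS0032956 had an FPKM of 2.14, 2.85 and 0.452 in As1 and 3.89, 2.81 and 2.10 in As2, with the groups overlapping. Of the 15 listed genes without a call, As2 replicate 2 was the highest As2 library in 11, against 1 for replicate 1 and 3 for replicate 3. It was also the highest in 63.7% of the lower DEGs, and in 19.2% of the higher DEGs. The share over all genes tested was not computed, so these counts are not read as a trait of the listed genes. The part of that library in these values was not tested.

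The CBL gene CSS0004428 and the bHLH gene CSS0041447 were not DEGs. CBL proteins are calcium sensors that act through protein kinases, and bHLH proteins are transcription factors. CSS0004428 had an FPKM of 21.2, 37.1 and 3.83 in As1 and 4.003, 48.3 and 62.7 in As2, beside 4.95, 2.19 and 4.95 in CK. One library of each arsenic group lay in the range of CK. The log2 fold change was 0.65, with a 95% interval from -1.56 to 2.86 (adjusted p = 0.782 from limma-trend). CSS0041447 had an FPKM of 47.4, 77.5 and 38.1 in As1 and 33.9, 30.2 and 61.3 in As2, beside 26.8, 31.7 and 13.7 in CK, with a log2 fold change of -0.38 (-1.18 to 0.42, adjusted p = 0.628).

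**Figure D3:**
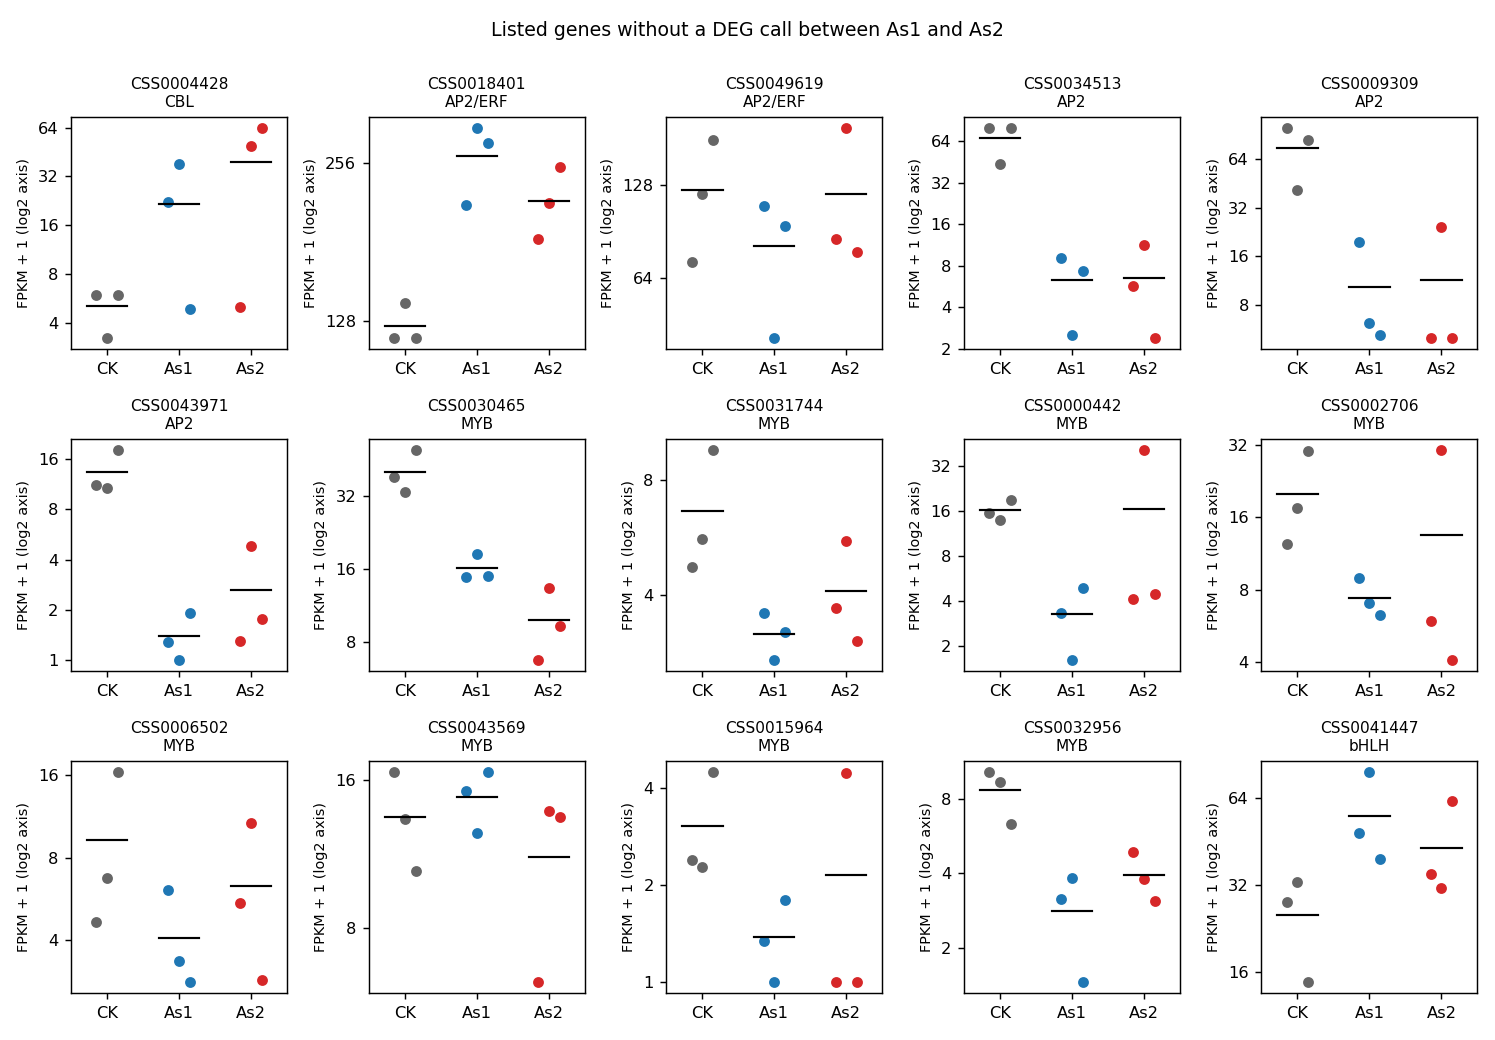
FPKM + 1 of the 15 listed genes without a call in As2 vs. As1, on log2 axes that differ between panels, with 1 point per library (replicates 1 to 3 from left to right) and a line at the mean of FPKM + 1. As2 replicate 2, the middle red point, is the highest As2 library in 11 of the 15 panels, with the share over all genes not computed.

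Among the genes with a CSS identifier, the lower DEG with the largest change was CSS0035553, which has no name in the sources used here. Its FPKM was 281, 126 and 301 in As1, 2.94, 13.8 and 5.29 in As2 and 9.86, 37.3 and 23.9 in CK. As1 lay above every other library of the series, and the cadmium libraries held 1.23 and 4.50 at 10 d and 11.5, 13.4 and 13.9 at 15 d. The log2 fold change in As2 vs. As1 was -4.95 ± 0.55 (SE, n = 3, adjusted p = 0.000633 from limma-trend), and it was called in all 6 fits without 1 arsenic library. The mean was 32.2 times as high in As1 as in As2.

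Outside the reference annotation, the higher DEG with the largest change had an FPKM of 8.77, 6.85 and 0.967 in As1 and 162, 73.2 and 83.3 in As2. CK replicate 1 held 139.9 and the other CK libraries 16.4 and 17.1, so that CK overlapped As2. Its log2 fold change was 4.24 ± 0.84 (SE, n = 3, adjusted p = 0.0187 from limma-trend). The lower DEG with the largest change there had an FPKM of 88.1, 15.9 and 35.2 in As1, 3.09, 4.74 and 3.76 in As2 and 2.37, 6.67 and 8.05 in CK. All As2 libraries lay in the range of CK, and all As1 libraries above it. Its log2 fold change was -2.98 ± 0.55 (adjusted p = 0.0134). The call of the former was lost without As1 replicate 3 or As2 replicate 1 (adjusted p = 0.072 and 0.0986), and that of the latter without As2 replicate 1 (0.0712). With limma-voom the call of the former was lost as well (0.0807).

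Fewer genes were detected at 10 d than at 15 d of arsenic. The number of genes with an FPKM above 0 was 37658, 35674 and 37407 in the As1 libraries and 39303, 38725 and 37933 in the As2 libraries, beside 39152, 38537 and 39868 in CK. The ranges of As1 and As2 did not overlap. The mean was 36913 ± 1080 genes (SD, n = 3) in As1 and 38653.7 ± 688 in As2, a difference of 1740.7 genes. An exact two-sided permutation test gave p = 0.1, the smallest that 3 against 3 libraries allow. The As1 libraries held 12049389, 12883509 and 13367944 fragments and the As2 libraries 10483112, 12099167 and 11431398. When every library was thinned to 10483112 fragments, the expected numbers were 37394, 35376 and 36922 in As1 and 39303, 38417 and 37750 in As2, a mean difference of 1926 genes with the same exact p of 0.1.

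Without a fragment in any As1 library, 286 genes had some in every As2 library. The reverse held for 65 genes. The median of the fragments summed over the group was 11 and 12, respectively, and the highest 126 and 143. Against a floor of 3 fragments over the group without any, the gene with the most fragments was at least 47.3-fold higher in As2 in the former set and at least 42.3-fold higher in As1 in the latter. Of the 286 genes, 107 had fragments in every CK library, and of the 65 genes 12 did. Most of them were too low for the filter. Of the 286 genes 15 were tested and 9 were DEGs, and of the 65 genes 6 were tested and 4 were DEGs. A gene tested with no fragment in a group passed the filter only through the other group, so these counts of DEGs support nothing.

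**Figure D4:**
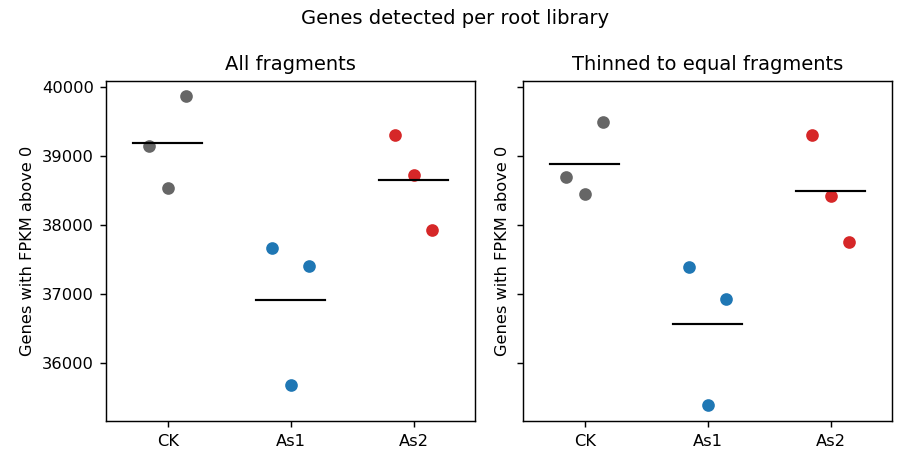
Number of genes with an FPKM above 0 in each library of CK, As1 and As2 (replicates 1 to 3 from left to right, lines at the means), with all fragments and as the number expected after thinning to 10483112 fragments; the axis does not start at 0. In both panels every As1 library lies below every As2 library.

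The cadmium libraries were then used to see whether the same genes differ between 10 d and 15 d under another metal. No library is shared by the 2 differences, and Cd1 has 2 libraries. Both were tested in the same fit, with a shared estimate of the spread of each gene over all groups. A gene with a small spread is thus called more easily in both, so the shared calls are not independent. Of the 28789 genes, 416 (1.44%) were DEGs higher in Cd2 than in Cd1 and 105 (0.365%) lower. Of the 553 genes higher in As2, 169 were also higher in Cd2, which is 30.6% of the arsenic list and 40.6% of the cadmium list. Over the 553 genes the median log2 fold change under cadmium was 1.02, against 0.01 over all genes, and 483 (87.3%) were on the same side of 0 under both metals, against 55.6% of all genes tested. Of the 201 genes lower in As2, 1 was lower in Cd2, which is 0.50% of the arsenic list and 0.95% of the cadmium list. Over the 201 genes the median log2 fold change under cadmium was 0.13, and 81 (40.3%) had the same sign. Without As2 replicate 1, 80 of 136 higher and 0 of 57 lower DEGs were shared with cadmium, and without As2 replicate 2, 140 of 413 and 2 of 286 were. Without As2 replicate 3, 142 of 404 higher and 9 of 162 lower DEGs were shared, and 49.4% of the lower DEGs had the same sign. Without the library deposited under 2 labels, the cadmium DEGs were 216 higher and 25 lower, and 100 of 450 higher and 0 of 161 lower DEGs were shared. A further 9 DEGs of As2 vs. As1 were called in the opposite direction under cadmium. Both metals share their harvest days, so that exposure and harvest day cannot be told apart here either.

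The single gene lower at 15 d under both metals, CSS0017752, was singled out after its values were seen. Its FPKM was 22.8, 21.3 and 25.05 in As1, 2.91, 15.1 and 3.52 in As2, 36.4 and 24.1 in Cd1, and 3.26, 3.596 and 4.35 in Cd2. As2 replicate 2 was again nearer to As1 than the other As2 libraries were. The log2 fold change was -1.87 under arsenic (adjusted p = 0.036 from limma-trend) and -2.70 under cadmium (adjusted p = 0.0169). The call under arsenic was made in 1 of the 6 fits without 1 arsenic library, that without As2 replicate 2 (adjusted p = 0.00113), and in the others the adjusted p lay between 0.0789 and 0.157. It was also lost without the library deposited under 2 labels (0.0524).

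The difference between the changes under arsenic and under cadmium was tested as an interaction in the same fit. It passed the thresholds for 98 of the 28789 genes (0.34%), 24 of them positive (0.0834%) and 74 negative (0.257%). Of the 98 genes, 14 were among the 553 higher and 37 among the 201 lower DEGs. The interaction contains the As2 and As1 values on which the DEGs were chosen, so these shares are a description. Each arsenic library moved this count, which was 43, 56 and 25 without As1 replicates 1, 2 and 3 and 34 and 31 without As2 replicates 1 and 3. Without As2 replicate 2, it was called for 331 genes, 133 of them among 286 lower DEGs and 18 among 413 higher DEGs. For the 7 listed genes that rose, 0 were called in limma-trend (0.34% of all genes tested), and 0 had an unadjusted p under 0.05 (13.2% of all genes tested). Their interaction was between 0.01 (CSS0000647, 95% interval -1.01 to 1.03) and 0.86 (CSS0019367, -0.15 to 1.88) on the log2 scale. With 7 genes, counts of 0 are near these shares. On these libraries, the study picked the 7 for a fall and a later rise under both metals. That choice favours a small interaction, so these values do not test whether the metals differ in these genes. CSS0035553 was called, with a log2 fold change of -4.95 under arsenic and 1.99 under cadmium (interaction -6.94, 95% interval -8.71 to -5.16, adjusted p = 0.00563 from limma-trend). Its change under cadmium alone was not called (adjusted p = 0.131 from limma-trend). This gene was chosen for its large fall under arsenic, and its interaction contains the same As1 and As2 values.

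**Figure D5:**
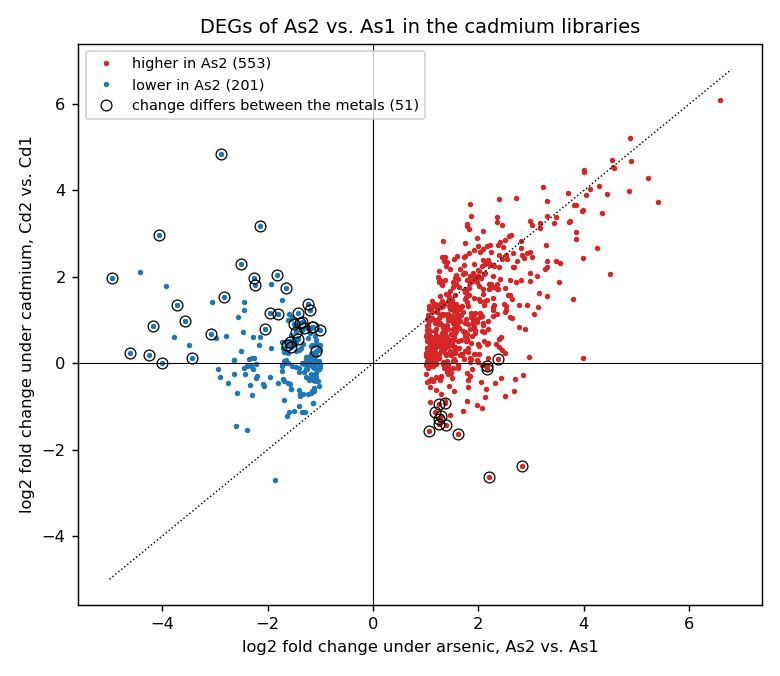
Each point is 1 DEG of As2 vs. As1, with its log2 fold change under arsenic on the x axis and in Cd2 vs. Cd1 on the y axis, the dotted line marking equal changes and circles the 51 DEGs with a called interaction. Of the higher genes (red) 483 lie above 0 under cadmium, and of the lower genes (blue) 119 do.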

How the data were processed

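Root RNA was sequenced from CK, Cd1, Cd2, As1 and As2, with 3 libraries in each group by the labels. After adapter and quality trimming, the authors aligned the reads to the tea genome (HISAT, with the genome version not given in the sources used here). They deposited FPKM values of 59128 genes per library. The labels and the paper's methods name different RNA and library kits. No scaling was added. The libraries had median ratios of 1.0124 to 1.016 to their geometric mean. Values already scaled by such ratios would lie as close, so the ratios do not test whether scaling was needed. The file of Cd1 replicate 3 repeats Cd2 replicate 1, and 14 libraries were fitted.

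Whole fragments were recovered for all 46517 genes above 0 from the steps of the FPKM values, within 0.02 fragments, and used for depth, thinning and limma-voom. They can be too low by a whole factor in genes seen in few libraries. The test was that of limma (version 3.58.1, R version 4.3.3) with a trend in eBayes, on log2(FPKM + 1) of the genes that reached 1 FPKM in 3 arsenic libraries. A DEG needed an FDR below 0.05 and an absolute change above 1 on this scale. On simulated data of 28789 genes, As2 vs. As1 recovered 154 of 200 genes changed 4-fold, beside 7 unchanged genes, and 191 changed 16-fold, beside 5. The changes were placed only in genes above a set mean level, with independent normal noise for each gene and library. Changes in genes of low FPKM and effects on a whole library were not simulated, so these figures do not cover them. Other values were computed in Python 3.11.15 with scipy 1.17.1, pandas 2.3.3 and numpy 2.4.6.

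Named were the 22 genes of the paper's text and, among DEGs without overlap, the gene with the largest change in each direction with a CSS identifier and outside the reference annotation, which for the higher CSS genes was CSS0006162. CSS0017752 was added after its values were seen. The members and lists were chosen with earlier results of these data known. The deposited gene models are of another assembly and were not used. Tables of RefSeq genes held none of the CSS identifiers, so no positions or sequences are given. The alternatives varied the pseudocount, filter, scaling, libraries, replicate number, test and threshold.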

Additional observations from a re-analysis of the deposited data

Results flagged for a closer look

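By a test of the difference itself, the change from 10 d to 15 d differed between arsenic and cadmium for 98 genes. These are 0.34% of the genes tested (limma-trend, FDR under 0.05). The change under arsenic minus that under cadmium, with signs kept, was positive for 24 genes and negative for 74. The sign does not say under which metal a gene changed more. Of the 98 genes, 51 were DEGs of As2 vs. As1, against 2.62% of all genes tested. The interaction contains the As2 and As1 values on which the DEGs were chosen, so this overlap is a description. Without 1 arsenic library at a time, the interaction was called for 25 to 331 genes. CSS0035553, a lower DEG chosen for its large fall under arsenic, was among the 51. It had an interaction of -6.94 on the log2 scale (-4.95 under arsenic and 1.99 under cadmium, the latter not called, with an adjusted p of 0.131 from limma-trend). Its 3 As1 libraries held 126 to 301 FPKM, against 1.23 to 37.3 in all other libraries.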

How the results depend on the processing

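The DEGs in As2 vs. As1, 754 in all, with 553 higher and 201 lower, and the 98 genes with an interaction changed as follows. With no filter on low FPKM there were 479, 353, 126 and 57. With only the 6 arsenic libraries the DEGs were 336, 272 and 64, and with the 9 libraries of CK, As1 and As2 they were 441, 340 and 101. An FDR under 0.01 gave 197, 150, 47 and 13, and an unadjusted p under 0.05, which lets genes pass by chance, 2028, 1413, 615 and 2410. Without a limit on the fold change 422 genes were lower. The interaction was called for 60 genes without the library deposited under 2 labels, and for 54 with limma-voom. Without 1 arsenic library at a time, the counts lay between 193 and 699 DEGs, 136 and 413 higher, 57 and 286 lower, and 25 and 331 with an interaction. With only the 6 arsenic libraries and without As2 replicate 2, chosen after seeing the data, there were 307 DEGs, with 168 higher and 139 lower. The causes were not tested, except that fits with fewer libraries estimate the spread from fewer values.

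The calls of CSS0035553 (adjusted p = 0.0709 from limma) and of the largest fall outside the reference annotation (0.138) were lost with the replicate block in the 6 arsenic libraries, and the latter also with these libraries but As2 replicate 2 (0.0675). That of CSS0017752 was lost with no filter (0.0636), with the 6 or 9 libraries (0.131 and 0.0913) and with the block in the 6 libraries (0.201). An FDR under 0.01 dropped CSS0017752 and both genes outside the annotation. Among the named genes, only those without a call turned their sign. With limma-voom CSS0034513 was at 0.005 and CSS0009309 at 0.056. Without 1 arsenic library CSS0034513 lay between -0.614 and 0.545, CSS0009309 between -0.798 and 0.566, CSS0004428 between -0.213 and 1.812 and CSS0002706 between -0.575 and 0.875. The number of genes above 0 was higher in As2 by 1121.2 to 2113.2 genes without 1 library and by 1306.7 at an FPKM of at least 1. At this depth a level under 3 fragments could not be told from 0.

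No source says whether the replicate numbers pair the libraries. The deviations of same-numbered As1 and As2 libraries had correlations of 0.07, -0.19 and -0.04. Those of libraries with other numbers lay between -0.17 and 0.18. With 3 libraries in each group, these values cannot decide whether there was a pairing. With the replicate number as a block there were 637 DEGs in the fit of all groups, with 57 interactions, and 85 DEGs, with 70 higher and 15 lower, in the 6 arsenic libraries only.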
